A study of Mus musculus with 6 samples.

Results

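The genes described here are *Yap1*, *Wwtr1*, *Tead1*, *Ccn1*, *Ccn2*, *Ankrd1*, *Amotl2*, *Lats2*, *Ajuba* and *Axl*, which encode the coactivators YAP and TAZ, a TEAD transcription factor and 7 genes widely used as their targets. They were chosen by name, and all 10 were found among the 55367 gene names of the count table. Of these 10 members, 9 had enough counts to be tested, among 14916 genes tested in all, and *Ankrd1* did not.

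Primary keratinocytes, the epithelial cells of the epidermis, were cultured from mouse skin and sequenced after a deletion in *Ppp1r13l*, the gene encoding iASPP. All 6 libraries came from cells of the genotype Ppp1r13l flox/flox;Cre+ERT on a mixed C57BL/6 and 129/Sv background. The labels name 3 batches (B1, B2 and B3), each with 1 culture given tamoxifen (iASPP-KO) and 1 without it (iASPP-WT), so that each group held 3 cultures. The comparison asked how loss of iASPP changes gene expression in these cells.

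Tamoxifen treatment of the iASPP-KO cultures began on the day after plating (24 h) and was followed by 4 days in culture. The sample labels give the dose as 1 mM whereas the methods of the study give it in micromolar units. The iASPP-WT cultures carried the same floxed alleles and the same inducible Cre but received no tamoxifen, so the effects of the drug, of active Cre and of the deletion cannot be told apart. The inducible Cre was inserted at the ROSA26 locus, so recombination was not restricted to keratinocytes. *Ppp1r13l* itself was at 14.3, 17.7 and 5.91 CPM with tamoxifen (batches 1, 2 and 3, the order in which all values of a group are given) and at 32.7, 45.1 and 21.02 CPM without it. CPM is the number of counts after each library was scaled to 1000000 with edgeR's TMM factors, which correct for differences in library composition. Counts remained in every iASPP-KO culture, and the groups did not overlap. In the methods the loxP sites lie around exon 8, whereas counts cover all exons, so the values do not show how much intact transcript was left.

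YAP and TAZ are transcriptional coactivators without a DNA-binding domain of their own, and they reach DNA through the TEAD factors. The LATS kinases of the Hippo pathway phosphorylate YAP and TAZ, which keeps them in the cytoplasm. Cell spreading and tension on the actin cytoskeleton favour the entry of YAP and TAZ into the nucleus. In the epidermis they are known for promoting proliferation of basal keratinocytes, and several of their targets, such as *Amotl2* and *Lats2*, encode proteins that restrain them in turn.

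TEAD factors recognise the letters GGAATG, which read CATTCC on the other strand. This motif was searched on both strands in the promoters given by RefSeq for GRCm38.p6, each running from 250 bases before to 50 bases after a gene's start. Promoters were listed for 8 of the 10 members, and *Ccn2* and *Tead1* had no entry. All 8 genes held at least 1 match in a promoter, as did 16.6% of all 27025 genes with a promoter listed. Among genes with a listed promoter, so did 7 of 15 (46.7%) in the YAP and TAZ target signature described below. For the Hippo regulators described below it was 8 of 21 (38.1%), and both lists share genes with the members. The letters TGANTCA, which AP-1 factors recognise, were found in none of the 8 members and in 8.97% of the 27025 genes. A match describes letters in a window and is not evidence of binding. The 30 bases around each TEAD match are printed here because every member with a listed promoter held this motif, 5′ to 3′ on the strand of the gene, with the match in capitals.
Yap1: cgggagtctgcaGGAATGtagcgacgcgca
Wwtr1: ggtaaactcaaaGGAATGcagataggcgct
Ccn1: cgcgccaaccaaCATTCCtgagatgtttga
Ankrd1 upstream match: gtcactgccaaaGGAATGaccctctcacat
Ankrd1 downstream match: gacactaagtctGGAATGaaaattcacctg
Amotl2: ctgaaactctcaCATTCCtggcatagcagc
Lats2: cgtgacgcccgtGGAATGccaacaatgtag
Ajuba upstream match: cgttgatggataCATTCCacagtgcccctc
Ajuba downstream match: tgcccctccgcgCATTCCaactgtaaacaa
Axl: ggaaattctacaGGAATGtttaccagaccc

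On GRCm38 these windows lie at chr9:8004720-8004749 (*Yap1*, minus strand), chr3:57576029-57576058 (*Wwtr1*, minus), chr3:145650071-145650100 (*Ccn1*, minus) and chr7:25788949-25788978 (*Axl*, minus), all upstream of the gene models used for counting. The windows of *Ajuba* at chr14:54577830-54577859 and chr14:54577808-54577837 (minus strand) are also upstream, with their matches 22 bases apart. Those of *Ankrd1* at chr19:36120037-36120066 and chr19:36119950-36119979 (minus strand) start their matches 87 bases apart and fall in an annotated exon of the gene, as does the window of *Amotl2* at chr9:102717727-102717756 (plus strand). The match of *Lats2*, at chr14:57746102-57746131 (minus strand), begins 4 bases after the start of 1 of its 2 listed promoters, and 22 of the 30 bases are exonic. In the other members the matches lie before the start, from 65 bases in *Amotl2* to 233 bases in *Axl*. *Wwtr1* has 2 overlapping promoters, both of which contain its match.

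None of the 9 tested members passed an adjusted p of 0.05 in either direction in edgeR's quasi-likelihood test with batch and condition in the model, adjusted by Benjamini-Hochberg over all tested genes. Of all tested genes, 2.17% passed as higher and 1.95% as lower in iASPP-KO. At an unadjusted p under 0.05, 0 members were higher and 1 was lower (*Ccn2*), against 8.66% and 8.09% of all tested genes. With DESeq2, 0 members passed as higher and 1 as lower, again *Ccn2*, against 3.91% and 3.31% of the 12291 genes for which that tool gave an adjusted p. The median log2 fold change (iASPP-KO over iASPP-WT) of the 9 was −0.039, beside 0.0057 over all tested genes, and it was −0.017 without batch 2 and −0.11 without batch 3. Their values ran from −0.75 to 0.16, with 5 below and 4 above 0. In bulk samples, fewer cells of a type and less RNA per cell cannot be told apart.

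**Figure D1:**
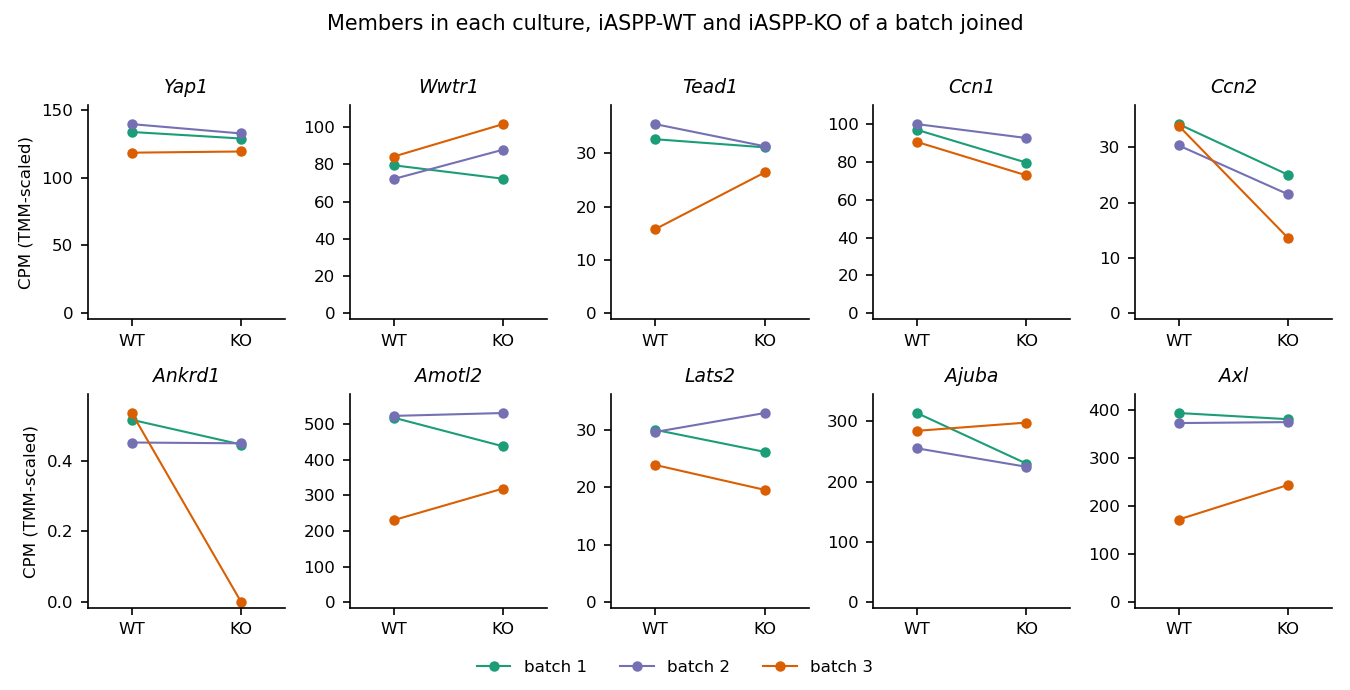
TMM-scaled CPM of each member in the 6 cultures, with the iASPP-WT and iASPP-KO culture of a batch joined by a line and every vertical axis starting near 0. *Ccn2* is lower in the iASPP-KO culture of each batch, and *Amotl2*, *Axl* and *Tead1* are lowest in the iASPP-WT culture of batch 3.

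*Yap1*, which encodes YAP, had 129, 132 and 119 CPM in iASPP-KO and 134, 139 and 118 CPM in iASPP-WT. All 6 values lay close together and the groups overlapped. Its log2 fold change was −0.039 ± 0.11 (SE, the standard error of the fit; adjusted p = 0.907, edgeR quasi-likelihood), with a 95% interval from −0.28 to 0.20. That interval covers fold changes from 0.824 to 1.15. *Wwtr1*, which encodes TAZ, had 72.2, 87.8 and 102 CPM in iASPP-KO and 79.5, 72.1 and 84.1 CPM in iASPP-WT. The highest value was that of the iASPP-KO culture of batch 3, and the groups overlapped. This gave a log2 fold change of 0.14 ± 0.13 (SE) and an adjusted p of 0.667 (edgeR quasi-likelihood), and the difference within batches was −0.14, 0.28 and 0.27.

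*Tead1*, one of the 4 TEAD genes that bring YAP and TAZ to DNA, had 31.1, 31.3 and 26.4 CPM in iASPP-KO and 32.6, 35.4 and 15.8 CPM in iASPP-WT. The iASPP-WT culture of batch 3 was the lowest of the 6, and the other 5 lay between 26.4 and 35.4 CPM. The fitted log2 fold change was 0.16 ± 0.20 (SE), with an adjusted p of 0.770 from edgeR's test. Within batches the log2 difference was −0.069, −0.18 and 0.74, and without batch 3 the fitted value changed sign to −0.12. The exons of *Tead1* sum to 13570 bases, the longest of the members.

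The secreted matricellular proteins CCN1 and CCN2, also called CYR61 and CTGF, are the most widely used readouts of YAP and TEAD activity. *Ccn1* had 79.6, 92.6 and 72.9 CPM in iASPP-KO and 96.9, 99.96 and 90.5 CPM in iASPP-WT. The iASPP-KO culture was the lower one in each batch, by −0.28, −0.11 and −0.31 on the log2 scale, but the groups overlapped because the iASPP-KO culture of batch 2 exceeded the iASPP-WT culture of batch 3. In the edgeR fit the log2 fold change was −0.24 ± 0.12 (SE, adjusted p = 0.345), with a 95% interval from −0.49 to 0.02.

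*Ccn2* (chr10:24595442-24598683, GRCm38, plus strand) had 25.03, 21.5 and 13.6 CPM in iASPP-KO and 34.2, 30.4 and 33.9 CPM in iASPP-WT. Every iASPP-KO culture was below every iASPP-WT culture. *Ccn2* was the only one of the 9 tested members for which this held, and 5.46% of all tested genes were arranged in this way. Mean levels were 20.04 ± 5.86 CPM in iASPP-KO and 32.8 ± 2.14 CPM in iASPP-WT (SD, n = 3 each). With edgeR this was a log2 fold change of −0.75 (SE 0.20, 95% interval from −1.19 to −0.31), which corresponds to a ratio of 0.595.

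The adjusted p of *Ccn2* was 0.0679 with edgeR's quasi-likelihood test and so missed the threshold, although the unadjusted p was 0.00343. The within-batch log2 differences were −0.45, −0.50 and −1.31, and the iASPP-KO culture of batch 3 was the lowest of all 6. *Ccn2* passed with DESeq2 (adjusted p = 0.0289), with edgeR's robust dispersion (0.0407) and with edgeR without a filter on low counts (0.00228). Over all 10 alternatives, its adjusted p ranged from 0.00228 to 0.973 and its log2 fold change from −0.90 to −0.47. The value of −0.47 was the one without batch 3. Antisense to *Ccn2*, *Gm15270* overlaps 23.2% of its exon bases, and reads were counted by strand.

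*Ankrd1*, a nuclear ankyrin-repeat protein and a YAP target best known from muscle and endothelium, had counts of 10, 10 and 0 in iASPP-KO and of 11, 11 and 12 in iASPP-WT. The level was between 0.445 and 0.534 CPM in 5 cultures. The count of 0 was in the iASPP-KO culture of batch 3, where 3 counts, the limit that a count of 0 allows, come to 0.1275 CPM. Such a limit accounts for the counting of reads and not for duplicates made by PCR. In batches 1 and 2 the groups differed by 1 count each. Without a filter on low counts, edgeR gave *Ankrd1* an adjusted p of 0.940.

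The junction protein AMOTL2 binds YAP and holds it outside the nucleus. *Amotl2* had 438, 531 and 319 CPM in iASPP-KO and 518, 523 and 230 CPM in iASPP-WT. Both batch 3 cultures lay below the other 4, and the groups overlapped. Its log2 fold change was 0.082 ± 0.14 (SE, adjusted p = 0.837, edgeR quasi-likelihood), with −0.24, 0.022 and 0.47 within batches. Without batch 3 it was −0.11.

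*Lats2* encodes one of the kinases that inactivate YAP and TAZ, and it had 26.1, 32.9 and 19.5 CPM in iASPP-KO and 30.0, 29.6 and 23.9 CPM in iASPP-WT. The groups overlapped, with both batch 3 cultures lowest. This gave a log2 fold change of −0.11 ± 0.16 (SE) and an adjusted p of 0.809 (edgeR quasi-likelihood), with −0.20, 0.15 and −0.29 within batches. Without batch 2 the fitted value was −0.24, and without batch 3 it was −0.022. The level of *Lats2* is uncertain because 42.4% of its exon bases also belong to *Gm49361*, a gene model on the same strand, and 56.6% of the stretches of read length (42 bases) in its longest transcript also occur in that model. Reads that overlap both were assigned to neither gene with the counting options given in the file header.

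AJUBA is a LIM-domain protein of adherens junctions that binds LATS kinases. *Ajuba* had 230, 225 and 298 CPM in iASPP-KO and 314, 255 and 284 CPM in iASPP-WT. In iASPP-KO the batch 3 culture was the highest, and the groups overlapped. The fitted log2 fold change was −0.19 ± 0.12 (SE), with an adjusted p of 0.524 from edgeR's test, with −0.45, −0.18 and 0.068 within batches. *Axl*, which encodes a receptor tyrosine kinase for the ligand GAS6, had 381, 375 and 244 CPM in iASPP-KO and 393, 373 and 172 CPM in iASPP-WT. Both batch 3 cultures were below the other 4. In the edgeR fit the log2 fold change was 0.15 ± 0.13 (SE, adjusted p = 0.643), with −0.048, 0.0077 and 0.50 within batches, and it was −0.020 without batch 3.

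**Figure D2:**
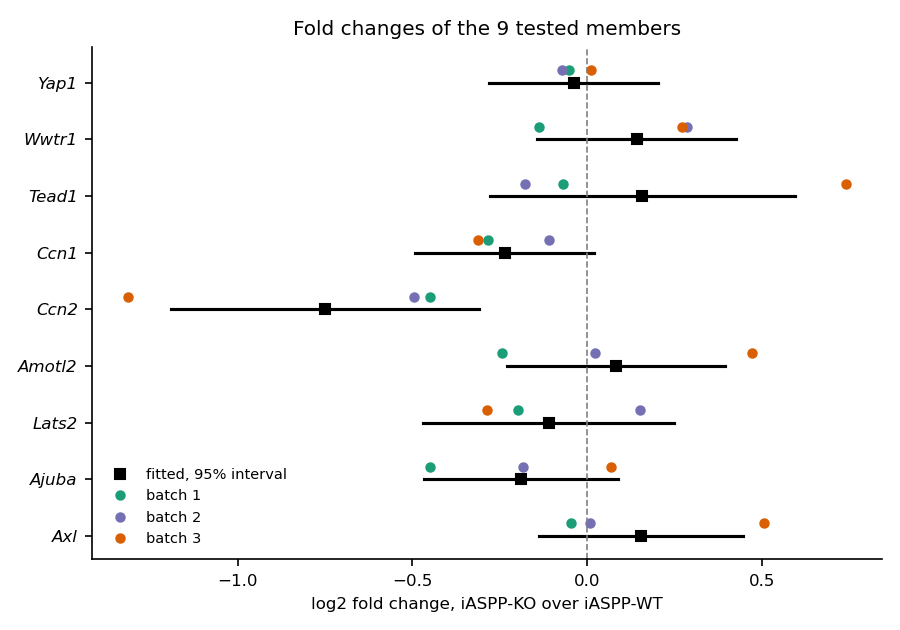
Log2 fold change of iASPP-KO over iASPP-WT for the 9 tested members, with squares for the fitted value, lines for its 95% interval and circles for the difference of log2 CPM in each batch. The interval of *Ccn2* runs from −1.19 to −0.31 and is the only one of the 9 that does not include 0, before adjustment for the number of genes tested.

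Among the 9 tested members, 2 (*Ccn1* and *Ccn2*) had a lower value in iASPP-KO in all 3 batches and 0 had a higher value in all 3, against 19.7% and 19.5% of all tested genes. The median within-batch log2 difference over batches 1, 2 and 3 was −0.20, −0.073 and 0.068. The test of the batch term in the same model, which was chosen after the values were seen, passed for 2 of the 9 members, *Amotl2* (adjusted p = 0.00910, edgeR quasi-likelihood) and *Axl* (0.00644), against 15.8% of all tested genes. The level of these genes in batch 3 relative to the mean of batches 1 and 2 was −0.88 for each on the log2 scale. Whether the effect of the deletion differs between batches was not tested, since each batch holds 1 culture per group.

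**Figure D3:**
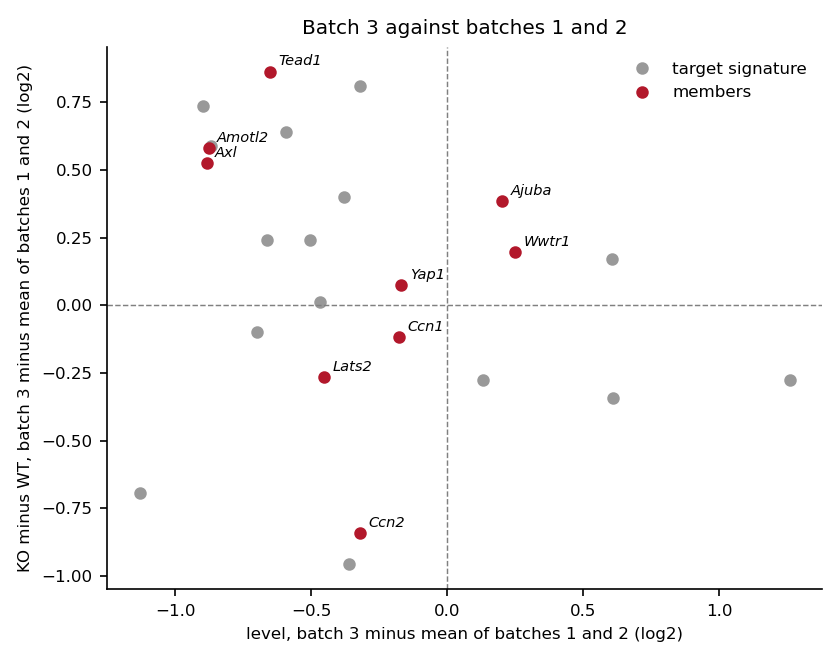
Level in batch 3 minus the mean of batches 1 and 2 (horizontal axis, log2) against the iASPP-KO minus iASPP-WT difference in batch 3 minus its mean in batches 1 and 2 (vertical axis, log2), for the tested members and the other tested genes of the target signature. *Amotl2*, *Axl* and *Tead1* lie at the upper left, with lower levels and a more positive difference in batch 3, and *Ccn2* lies near the bottom.

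Compared per length, as CPM per kb of exon, the members spanned a wide range of levels. *Ajuba* (73.4), *Amotl2* (67.8) and *Axl* (64.1) had the highest mean over the 6 libraries, and their ranges overlapped one another. *Ccn1* followed at 44.0, with a range (36.1 to 49.5) that overlapped that of *Axl* (34.2 to 78.2). From *Ccn1* downwards no neighbouring ranges overlapped when all exon bases were counted: *Wwtr1* had 17.3, *Yap1* 13.9, *Ccn2* 9.24, *Lats2* 3.87, *Tead1* 2.12 and *Ankrd1* 0.138 CPM per kb. *Wwtr1* ranged from 15.1 to 21.2 and *Yap1* from 12.8 to 15.1, so that the gap between these neighbours was small. With *Lats2* divided only by the 4016 exon bases not shared with *Gm49361*, a choice made after the values were seen, it had 6.73 CPM per kb, and its range (4.87 to 8.19) overlapped that of *Ccn2* (4.75 to 11.95).

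**Figure D4:**
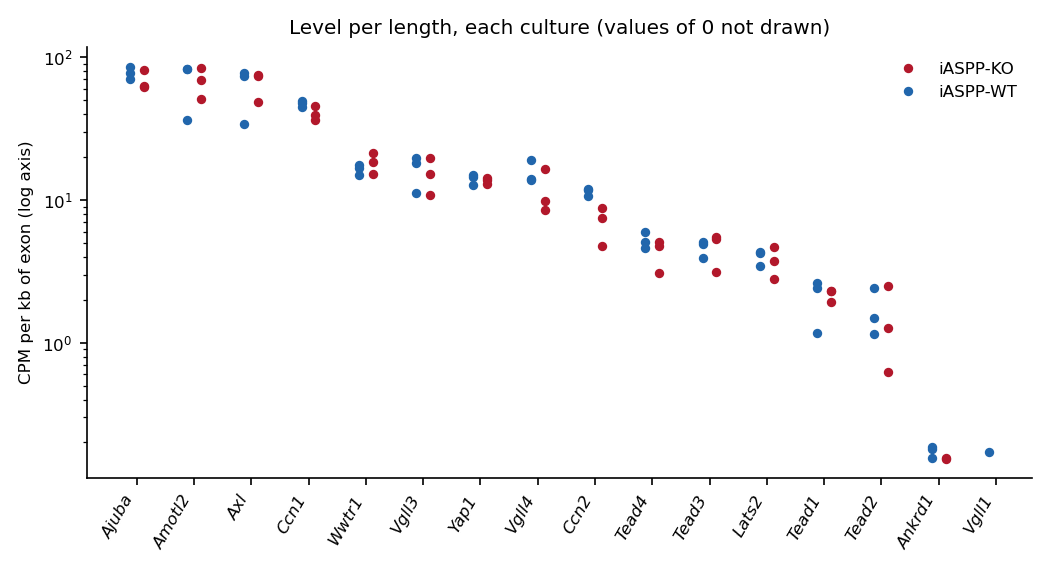
CPM per kb of exon on a log axis for the members and the other TEAD and VGLL genes, with 1 point per culture and values of 0 not drawn. *Ajuba*, *Amotl2*, *Axl* and *Ccn1* are at the upper left, and *Ankrd1* and *Vgll1* are near the bottom of the axis.

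The other TEAD genes and the VGLL cofactors, which compete with YAP and TAZ for TEAD, were read from a list of 10 genes that also holds *Yap1*, *Wwtr1* and *Tead1*. *Wwtr1* had the highest mean per length (17.3 CPM per kb, range 15.1 to 21.2), and the ranges of *Vgll3* (15.8, from 10.8 to 19.7) and *Vgll4* (13.6, from 8.47 to 18.95) overlapped it, both named after their values were seen. *Tead4* had 4.75 and *Tead3* 4.65 CPM per kb, both above *Tead1* (2.12), while *Tead2* had 1.58. The ranges of *Tead2* (0.628 to 2.51) and *Tead1* (1.16 to 2.61) overlapped, whereas those of *Tead3* and *Tead4* lay above 3. Of the 8 tested genes, 0 passed as higher and 0 as lower with edgeR, against 2.17% and 1.95% of all tested genes. At an unadjusted p under 0.05 there were 0 higher and 1 lower, against 8.66% and 8.09%. DESeq2 called 0 higher and 1 lower, against 3.91% and 3.31% of the genes to which it gave an adjusted p. The gene was *Vgll4* in both cases.

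*Vgll4* encodes a corepressor of TEAD and had 53.1, 45.7 and 88.8 CPM in iASPP-KO and 75.7, 74.9 and 102 CPM in iASPP-WT. The iASPP-KO culture was the lower one in each batch, by −0.51, −0.71 and −0.20 on the log2 scale, and the groups overlapped. Its log2 fold change was −0.47 ± 0.13 (SE, adjusted p = 0.0824, edgeR quasi-likelihood). In edgeR it passed without batch 3 (adjusted p = 0.000651), without a filter on low counts (0.0252) and with robust dispersion (0.04999). *Vgll2* was at 0 in every library, and *Vgll1* had reads in 1 library only (0.422 CPM in the iASPP-WT culture of batch 1).

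A signature of 22 genes induced by YAP and TAZ, which shares *Amotl2*, *Lats2*, *Ccn1*, *Ccn2*, *Ankrd1* and *Axl* with the members, had 20 tested genes. Of these, 2 rose and 1 fell in iASPP-KO at an adjusted p under 0.05 with edgeR's quasi-likelihood test, and 17 did not pass. At that threshold 2.17% of all tested genes rose and 1.95% fell. At an unadjusted p under 0.05 there were 3 in each direction, against 8.66% higher and 8.09% lower of all tested genes. DESeq2 called 2 higher and 3 lower, against 3.91% and 3.31% of the genes to which it gave an adjusted p. The median log2 fold change of the signature genes was 0.031, with 10 genes above 0 and 10 below. Without batch 1 or without batch 2 only *Igfbp3* passed in edgeR, without batch 3 there were 3 genes in each direction, and without the batch block there was none.

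*Igfbp3*, an insulin-like growth factor binding protein, rose from 101, 114 and 69.4 CPM in the iASPP-WT cultures to 156, 184 and 130 CPM in the iASPP-KO cultures. It was higher in the iASPP-KO culture of each batch and the groups did not overlap, an order found for 5.26% of all tested genes. This gave a log2 fold change of 0.74 ± 0.12 (SE) and an adjusted p of 0.00818 (edgeR quasi-likelihood). *Igfbp3* passed in 9 of the 10 alternatives, and the exception was edgeR without the batch block (log2 fold change 0.72, adjusted p = 0.973).

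*Gadd45a*, a stress-response gene that arrests the cell cycle, rose from 38.1, 43.9 and 27.2 CPM to 48.4, 65.7 and 49.5 CPM. The groups did not overlap. The fitted log2 fold change was 0.60 ± 0.14 (SE), with an adjusted p of 0.0490 from edgeR's test. In edgeR this call was lost without the batch block (log2 fold change 0.58, adjusted p = 0.973), without batch 1 (0.73, 0.0649) and without batch 2 (0.61, 0.216).

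*Rbms3*, named after its values were seen, lay just outside the threshold, with a log2 fold change of −0.62 (SE 0.15, edgeR adjusted p = 0.0532). The most abundant signature gene per length was *F3*, which encodes tissue factor (97.9 CPM per kb), with a log2 fold change of −0.17 (SE 0.16, edgeR adjusted p = 0.676). The batch term passed for 11 of the 20 genes, against 15.8% of all tested genes.

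Upstream of YAP and TAZ, a list of 25 Hippo regulators included the kinases, their scaffolds and the angiomotins, and all 25 were tested. With edgeR 0 passed as higher and 0 as lower. These shares were 2.17% and 1.95% over all tested genes. At an unadjusted p under 0.05 there was 1 in each direction, *Mob1b* higher and *Wtip* lower, against 8.66% and 8.09% of all tested genes. DESeq2 called 0 in either direction, against 3.91% and 3.31% of the genes to which it gave an adjusted p. The median log2 fold change of the list was −0.068. Of the 25, 18 were below 0, as were 7368 of all 14916 tested genes. *Wtip*, a LIM-domain relative of AJUBA named after its values were seen, had a log2 fold change of −0.77 (SE 0.22, edgeR adjusted p = 0.0853). Without batch 3 it passed as lower, together with *Wwc2* and *Amot*, in a fit where 1455 of 15261 genes passed in either direction. The most abundant gene of the list per length was *Ajuba*.

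Among 16 paralogs of the members, 13 were tested and with edgeR 0 passed in either direction. Unadjusted p-values under 0.05 were found for 1 higher (*Ccn3*) and 1 lower gene (*Wtip*), against 8.66% and 8.09% of all tested genes. DESeq2 gave 12 of the paralogs an adjusted p and called 1 higher (*Ccn3*) and 0 lower. Of all genes given one, it called 3.91% higher and 3.31% lower. *Ccn3*, in the same family as *Ccn1* and *Ccn2*, had 0.980, 1.30 and 6.25 CPM in iASPP-KO and 0.141, 0 and 2.05 CPM in iASPP-WT. Both batch 3 cultures were the highest of their group, and the groups overlapped. With so few counts the fitted log2 fold change of 2.85 (SE 0.90, edgeR adjusted p = 0.125) is imprecise. *Ccn6* was at 0 in every library. *Amotl1* was the most abundant paralog per length (55.8 CPM per kb), close to *Amotl2* with overlapping ranges.

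SRF and its cofactors of the MRTF family respond to actin dynamics and share several targets with YAP and TEAD. Of 16 SRF and MRTF target genes, all tested, 7 fell and 0 rose with edgeR's quasi-likelihood test, against 1.95% and 2.17% of all tested genes. Unadjusted p-values under 0.05 were found for 9 lower and 0 higher genes (8.09% and 8.66% of all tested genes), and DESeq2 called the same numbers (3.31% and 3.91% of the genes to which it gave an adjusted p). In edgeR 3 passed as lower without batch 2, 11 without batch 3 and 0 without the batch block. The median log2 fold change was −0.50, and 10 of the 16 were lower in the iASPP-KO culture of every batch, as were 2944 of all 14916 tested genes. Among the genes that passed, *Myl9*, *Filip1l* and *Acta2* had the largest falls, and the others were *Srf*, *Cnn2*, *Flna* and *Zyx*.

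*Myl9*, a regulatory light chain of non-muscle and smooth muscle myosin, had 8.55, 2.96 and 11.1 CPM in iASPP-KO and 24.2, 14.5 and 44.1 CPM in iASPP-WT. In the edgeR fit the log2 fold change was −1.91 ± 0.21 (SE, adjusted p = 0.00155), with no overlap between groups. For *Filip1l* the values were 14.1, 10.9 and 23.1 CPM against 33.3, 22.6 and 60.6 CPM. Its log2 fold change was −1.23 ± 0.16 (SE, adjusted p = 0.00316, edgeR quasi-likelihood), with an overlap between batches but a lower iASPP-KO value within each.

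*Acta2*, the smooth muscle actin, had 25.2, 16.8 and 101 CPM against 65.2, 47.7 and 130 CPM. Both batch 3 cultures were highest. This gave a log2 fold change of −1.07 ± 0.20 (SE) and an adjusted p of 0.0197 (edgeR quasi-likelihood). In edgeR *Acta2* did not pass without batch 2 (log2 fold change −0.85, adjusted p = 0.0979). *Actb*, the most abundant of the list per length, had a log2 fold change of −0.20 (SE 0.11, edgeR adjusted p = 0.442), and 21.9% of its read-length stretches also occur in transcripts of other genes. The log2 fold changes of this list were not tested against those of the members. *Myl9*, *Filip1l* and *Acta2* were highest in the batch 3 culture of each group, where the sum of fibroblast markers was also highest. The batch term passed for these 3 genes. It did not pass for *Srf*, *Cnn2*, *Flna* and *Zyx* (adjusted p from 0.274 to 0.503, edgeR quasi-likelihood). All 7 genes were lower in iASPP-KO in every batch. So were 3 of the 12 fibroblast markers (*Col1a2*, *Col3a1* and *Pdgfrb*, named after their values were seen) and 19.7% of all tested genes. Of the markers, 0 were higher in every batch, against 19.5% of all tested genes. The sum of fibroblast markers was lower in iASPP-KO in batch 3 only. Of these markers, *Pdgfra* was higher in batches 1 and 2 (log2 difference 1.292 and 1.597) and lower in batch 3 (−0.418). The part of fibroblasts in the change of *Myl9*, *Filip1l* and *Acta2* was not tested.

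**Figure D5:**
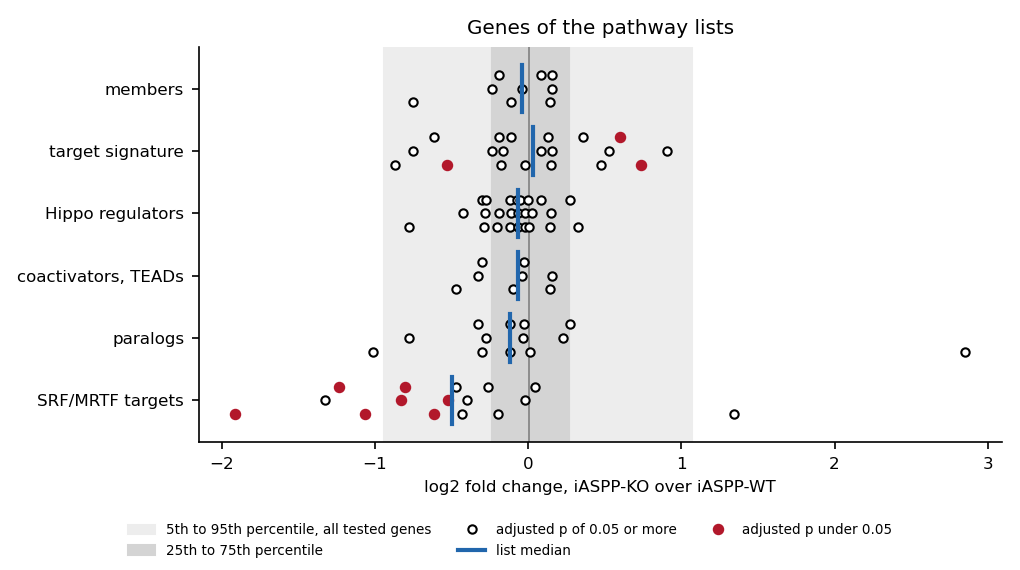
Log2 fold change of iASPP-KO over iASPP-WT for each tested gene of the 6 lists, filled where the adjusted p was under 0.05, with a bar at the list's median and shading for the 25th to 75th and 5th to 95th percentiles of all tested genes. The 9 members are all open circles around a median of −0.039, and the 7 filled circles of the SRF and MRTF targets all lie below 0.

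The cultures were checked for the cell types they could hold. Keratinocyte markers (10 genes) summed to 30320, 27970 and 30550 CPM in iASPP-KO and 34000, 29030 and 29170 CPM in iASPP-WT, led by *Krt14*. The batch term passed for 7 of the 10, against 15.8% of all tested genes. The median level of the 10 in batch 3 relative to the mean of batches 1 and 2 was −0.36 on the log2 scale. None of the 10 passed with edgeR or DESeq2. At an unadjusted p under 0.05 in edgeR, 1 was higher and 0 lower, against 8.66% and 8.09% of all tested genes. None was at 0 in every library.

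Fibroblast markers (12 genes, with *Col6a1* the most abundant per length) summed to 73.4, 88.7 and 595 CPM in iASPP-KO and 70.5, 79.2 and 897 CPM in iASPP-WT. They were thus far higher in both batch 3 cultures, and the batch term passed for 11 of the 12, against 15.8% of all tested genes. With edgeR, 2 fell in iASPP-KO (*Col1a2* and *Col3a1*, named after their values were seen) and 0 rose, against 1.95% and 2.17% of all tested genes. At an unadjusted p under 0.05, 1 was higher (*Pdgfra*, also named afterwards) and 2 were lower, against 8.66% and 8.09%. DESeq2 called the same 2 lower and 0 higher, against 3.31% and 3.91% of the genes to which it gave an adjusted p. None was at 0 in every library. *Amotl2* and *Axl* were lower in the same 2 cultures and *Ccn2* was lowest in the iASPP-KO culture of this batch. The part of fibroblasts and of keratinocytes in these values was not tested.

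Melanocyte markers (6 genes, led by *Pmel*) summed to 854, 395 and 1036 CPM in iASPP-KO and 1088, 341 and 1019 CPM in iASPP-WT, lower in batch 2 than in the others. Leukocyte markers (9 genes, led by *Cd68*) summed to 65.2, 70.2 and 82.0 CPM against 43.5, 59.0 and 64.8 CPM. Of the 5 tested with edgeR, 1 rose and 0 fell, against 2.17% and 1.95% of all tested genes. The gene that rose was *Csf1r*, named after its values were seen. At an unadjusted p under 0.05, 2 were higher and 0 lower, against 8.66% and 8.09%. DESeq2 gave an adjusted p to 3 of these 5 and called 1 higher and 0 lower. It called 3.91% higher and 3.31% lower of all genes to which it gave one. *Cd3e* was at 0 in every library. Endothelial markers (6 genes, led by *Pecam1*) summed to at most 13.0 CPM in a library and muscle markers (8 genes, led by *Acta1*) to at most 4.38 CPM. All 6 melanocyte markers had enough counts to be tested with edgeR, but only 3 of the 6 endothelial and 2 of the 8 muscle markers did. DESeq2 gave an adjusted p to 2 endothelial and 0 muscle markers. No tested gene of these 3 lists passed with edgeR or DESeq2. At an unadjusted p under 0.05 there was 1, *Acta1*, which was higher, as were 8.66% of all tested genes. The part of these cells in the values of the members was not tested.

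Finally, the genes most like 3 of the target genes over the 6 libraries were found by Pearson's r of log2 CPM among 8775 tested genes with a mean of at least 10 CPM. For *Ccn2* they were *Sumf2* (r = 0.992), *Gnpat* (0.988) and *Tet2* (0.985). For *Ccn1* they were *Heatr3* (0.980), *Actn1* (0.978) and *Ccar1* (0.970). For *Ankrd1* they were *Ascc3* (0.997), *Stk17b* (0.991) and *Macc1* (0.984), and the pattern of *Ankrd1* rests on its count of 0 in 1 library. The 6 libraries share batches and conditions, and r is given as a description. The lowest edgeR adjusted p of these 9 genes was that of *Actn1* (0.0757), with −0.40 as its log2 fold change.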

How the data were processed

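Per the labels and the methods of the study, RNA depleted of ribosomal RNA was sequenced as single reads of 42 bases. The authors trimmed reads with cutadapt 2.10, aligned them to mm10 (GRCm38) with STAR 2.7.3 and deposited raw counts of reads per gene name from featureCounts 2.0.0, on exons and by strand with GENCODE vM25. Library totals were 24544822, 23556669 and 22136525 counts (iASPP-KO, batches 1, 2 and 3) and 21353368, 25157117 and 20202517 (iASPP-WT). A second deposited table holds the authors' own fold changes and p-values and was not used.

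Counts were tested in R 4.3.3 with edgeR 4.0.16: filterByExpr, TMM, glmQLFit and glmQLFTest with batch and condition, and Benjamini-Hochberg adjustment at 0.05. Standard errors (SE) were taken as the size of the log2 fold change over the root of F. Within-batch differences use log2 CPM with a prior count of 2. DESeq2 1.42.0 was an alternative. Others were no batch block, 2 other scalings, 2 other filters, robust dispersion and each batch left out. For the SRF and MRTF counts, the members' median and single genes outside the members they were added after seeing the data. The steps were tested on simulated data with planted changes larger than those of any member. This does not show whether changes of the members' size would be found.

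The batch pairs the cultures because the labels state it. After subtracting condition means, same-batch cultures correlated over genes at 0.302, 0.368 and 0.568, and cultures of different batches at −0.427 to 0.179. No library was a copy of another (chi-square per gene 35.4 to 147 within a group).

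The members and lists were chosen with earlier results of these data known. Named genes are the members, *Ppp1r13l*, up to 3 genes per direction with the largest change among those past the threshold in each pathway list, its most abundant gene per length, the most abundant and the undetected marker genes, and the 3 genes most like *Ccn1*, *Ccn2* and *Ankrd1*. Other names were added after values were seen. One gene that meets these rules is not reported here. Promoter sequences are from RefSeq, and shared stretches were found in GENCODE vM21 transcripts. Python 3.11.15, pandas 2.3.3 and matplotlib 3.10.9 made tables and figures.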

Additional observations from a re-analysis of the deposited data

How the results depend on the processing

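The members gave 0 calls as higher under every alternative. As lower, 1 member (*Ccn2*) was called with DESeq2 (log2 fold change −0.75, adjusted p = 0.0289), without a filter on low counts (−0.75, 0.00228) and with robust dispersion (−0.75, 0.0407), and 0 were called under the other 7 alternatives. Without batch 3, 3 members changed sign, and without 1 batch their log2 fold changes ranged from −0.12 to 0.34 (*Tead1*), −0.11 to 0.25 (*Amotl2*) and −0.020 to 0.26 (*Axl*). For the others they were −0.063 to −0.017 (*Yap1*), 0.072 to 0.28 (*Wwtr1*), −0.30 to −0.20 (*Ccn1*), −0.24 to −0.022 (*Lats2*), −0.32 to −0.054 (*Ajuba*) and −0.90 to −0.47 (*Ccn2*), each on 1 side of 0. None of the 9 passed in a fit without 1 batch, and the cause of the shifts was not tested.

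Over all tested genes, 614 passed with the batch block. The fit with no replicate block gave 0, no filter on low counts 1115, and fits without 1 batch 291 to 1455. Without the block, signature genes numbered 0 higher and 0 lower, and SRF and MRTF targets 0 lower, in place of 2, 1 and 7. Without the block no adjusted p was under 0.05, and it changed no call of the members or Hippo regulators. Signature genes lower in iASPP-KO numbered 3 with DESeq2, without a filter and with robust dispersion, and 2 with DESeq2 size factors, upper-quartile scaling and at least 10 counts in every library. The added genes were *Ccn2* and *Rbms3*, or *Rbms3* alone. Without 1 batch the signature counts were 1 to 3 higher and 0 to 3 lower. Hippo regulators lower numbered 1 (*Wtip*) without a filter and 0 to 3 without 1 batch, and SRF and MRTF targets lower 3 to 11. The cause of these shifts was not tested.

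Depth limits *Ankrd1* in particular, at 12 counts or fewer in a library, and with 3 cultures per group the 95% intervals of the 9 tested members span 0.483 to 0.879 log2 units.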
